A study of Mus musculus with 8 samples.

Results

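The genes described here encode metalloproteinases and their inhibitors: the matrix metalloproteinases (MMPs), the ADAM, ADAMTS and ADAMTS-like (ADAMTSL) proteins, and the tissue inhibitors of metalloproteinases (TIMPs). Members were taken by symbol, as every gene named Mmp, Adam, Adamts, Adamtsl or Timp followed by a number, which gave 84 of the 50600 genes listed. They comprise 23 Mmp, 33 Adam, 19 Adamts, 5 Adamtsl and 4 Timp genes. These families were chosen with earlier results of these data known, so the shares of members called below are not free of that choice. RNA came from C57BL/6 mouse embryonic fibroblasts, and every group carried GHMT retroviruses, that is Gata4, Hand2, Mef2c and Tbx5, the factor set used to turn fibroblasts towards heart muscle cells. Treatment lasted 7 days, with 0.1% ethanol, with 1% DMSO, with I-CBP112 (5 µM), a ligand of the CBP and p300 bromodomains, or with C646 (5 µM), an inhibitor of the acetyltransferase activity of the same proteins. Each treatment had 2 libraries, 8 in all, and untransduced cells were not analysed here. Nothing in the labels says whether the libraries of a treatment came from separate cultures, so p-values measure only the spread between these libraries, which may be technical. No label names the solvents of the inhibitors, so an inhibitor and its solvent cannot be told apart. In these bulk samples, fewer cells of a type and less RNA per cell cannot be told apart either.

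MMPs are zinc endopeptidases that are secreted or anchored in the membrane as inactive precursors and cut collagens, fibronectin and other matrix proteins once activated. ADAM proteases sit in the plasma membrane and release the outer parts of growth factors, receptors and adhesion molecules, while ADAMTS proteases are secreted and cut proteoglycans and procollagens. ADAMTSL proteins resemble the non-catalytic part of ADAMTS proteases, lack the protease domain and bind fibrillin microfibrils. TIMPs close the active site of these enzymes, and in fibroblasts the balance of proteases and TIMPs sets how fast matrix is turned over.

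Values were the authors' mean normalised counts and fold changes in 3 deposited tables, of DMSO, I-CBP112 and C646 against 1 common reference that is read here as ethanol, since it is the treatment without a table. The tables hold no values of single libraries, so group means rebuilt from them stand in for values per sample, and the error after ± is the standard error (SE) of the authors' fit over groups of 2 libraries. Changes are called at a Benjamini-Hochberg adjusted p below 0.05. Of the members, 50 had an adjusted p in the DMSO and I-CBP112 tables, the same genes in both (tested members below), 24 had counts but none there, and 10 were listed at 0. The 12 fibroblast markers had mean normalised counts from 265 (Fap) to 348364 (Col3a1), and markers of heart and smooth muscle were detected too. The summed level of the fibroblast markers was 1026420 normalised counts in ethanol, 658004 in DMSO, 627899 in I-CBP112 and 1010040 in C646.

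Among the 50 tested members, mean normalised counts over all libraries ran from 27.9 for Adam11 to 40562 for Mmp2, with a median of 1451 against 659 for all 14830 tested genes. Per kilobase of exon, which allows levels of different genes to be compared, the order was led by Mmp2, the gelatinase that cuts denatured collagen, at 12033 mean normalised counts per kb. It was followed by the inhibitor Timp2 at 10194, the matrix-bound inhibitor Timp3 at 3806, the proteoglycanase Adamts1 at 3040 and the inhibitor Timp1 at 2926. Mmp14, the membrane-anchored protease that together with Timp2 activates the Mmp2 precursor, followed at 2305 mean normalised counts per kb. The median of the tested members was 187 per kb.

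Sequence before the start of transcription is shown first for a cluster of Mmp genes that lie side by side, because the promoters of several of them are textbook targets of AP-1, the Fos and Jun transcription factor. On chromosome 9 (GRCm38, 7272514 to 7699585) 10 Mmp genes lie within 427 kb. Of these Mmp3, Mmp12, Mmp13 and Mmp27 were tested here. In the 250 bases upstream of the RefSeq starts (table of build GRCm38.p6), 8 of the 10 genes held the AP-1 letters TGANTCA, which read the same on both strands; this count was made after the matches were seen. The following stretches give the match in capitals with 20 bases on each side, 5′ to 3′ on the strand of the gene.
Mmp13 (chr9:7272459-7272505, plus strand): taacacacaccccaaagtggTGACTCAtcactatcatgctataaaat
Mmp12 (chr9:7347310-7347356, plus strand): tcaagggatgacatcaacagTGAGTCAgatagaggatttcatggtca
Mmp1b (chr9:7388093-7388139, minus strand): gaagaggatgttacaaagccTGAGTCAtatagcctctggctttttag
Mmp3 (chr9:7445756-7445802, plus strand): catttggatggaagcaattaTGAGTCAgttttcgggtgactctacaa
Mmp1a (chr9:7464048-7464094, plus strand): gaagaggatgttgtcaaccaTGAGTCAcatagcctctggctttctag
Mmp10 (chr9:7502259-7502305, plus strand): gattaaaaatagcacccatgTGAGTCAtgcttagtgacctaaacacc
Mmp20 (chr9:7628116-7628162, plus strand): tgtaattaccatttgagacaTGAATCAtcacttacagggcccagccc
Mmp7 (chr9:7692007-7692053, plus strand): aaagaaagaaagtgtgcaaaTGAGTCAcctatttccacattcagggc
The matches began 35 bases (Mmp13) to 95 bases (Mmp20) before the start. Among all 32851 RefSeq promoter entries, 6.75% held these letters in the same window. RefSeq entries matched 53 of the 84 members, with 58 entries, of which 12 (20.7%) held them. Most of these belong to the 8 cluster genes shown above, and the others to Adam19, Adam20, Adam25 and Adam29. The 10 cluster genes have 12 entries, so their count by gene is not on the same scale as the shares of entries. Of the 39 entries that belong to tested members, 4 held them, for Adam19, Mmp3, Mmp12 and Mmp13 (10.3%). The ETS-type letters GAGGAAG, searched on both strands, were in 10.6% of all entries and 12.1% of those of members.

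Upstream sequence is shown next for the member whose RNA was lowest relative to ethanol in DMSO (Timp4), for the ADAMTS-like gene with the largest fold change (Adamtsl2) and for the member called in opposite directions in DMSO and I-CBP112 (Adamts18). Each is the 250 bases before the RefSeq start of build GRCm38.p6, 5′ to 3′ on the strand of the gene.
Timp4 (chr6:115252206-115252455, minus strand): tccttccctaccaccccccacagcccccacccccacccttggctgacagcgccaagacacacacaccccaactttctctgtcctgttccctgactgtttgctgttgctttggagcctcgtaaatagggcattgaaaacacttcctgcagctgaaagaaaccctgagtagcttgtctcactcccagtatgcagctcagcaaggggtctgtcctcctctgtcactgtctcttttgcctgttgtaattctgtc
Adamtsl2 (chr2:27079129-27079378, plus strand): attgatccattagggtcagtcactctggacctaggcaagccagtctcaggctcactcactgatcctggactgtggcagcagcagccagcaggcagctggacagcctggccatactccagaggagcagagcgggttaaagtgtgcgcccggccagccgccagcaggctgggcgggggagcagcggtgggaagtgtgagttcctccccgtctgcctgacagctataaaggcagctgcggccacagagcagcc
Adamts18 (chr8:113848840-113849089, minus strand): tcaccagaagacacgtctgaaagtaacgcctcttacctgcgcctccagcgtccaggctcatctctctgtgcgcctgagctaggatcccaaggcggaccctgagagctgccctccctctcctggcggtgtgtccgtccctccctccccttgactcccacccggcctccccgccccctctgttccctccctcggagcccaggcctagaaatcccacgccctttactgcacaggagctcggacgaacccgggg
Neither TGANTCA nor GAGGAAG, on either strand, was in these windows, which says only that these exact letters are not there. Shorter or variant forms of the AP-1 and ETS letters were not searched. The G and C share was 53.6% for Timp4, 62.8% for Adamtsl2 and 65.2% for Adamts18.

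The first comparison asks what 1% DMSO does to these genes relative to ethanol. The inhibitors Timp1, Timp3 and Timp4 and secreted proteases such as Mmp2, Mmp3 and Adamts4 were lower, and 4 of the 7 members that were higher were ADAM genes. By the test of the authors' deposited table, 25 of the 50 tested members changed, 7 upward and 18 downward, where 16.0% of all tested genes changed, 8.07% upward and 7.90% downward. Shares of all tested genes, here and below, are not matched for level, and the members had the higher median mean normalised count (1451 against 659). Of the 4 TIMPs, 3 fell, as did 5 of 14 MMPs, 6 of 15 ADAMTS, 2 of 5 ADAMTSL and 2 of 12 ADAM genes, while 4 ADAM genes, 2 ADAMTS genes and 1 MMP rose. The median log2 fold change of the tested members was -0.37, against 0.03 over all tested genes, and 37 of the 50 were below 0. Of the 25 called members, 5 changed at least 2-fold, all downward, namely Timp4, Mmp3, Mmp19, Adamtsl2 and Adamts4. When the Wald statistics were read against a t distribution (4 degrees of freedom), 0 members passed, here and in each comparison below. The shares of all tested genes that changed at least 2-fold, or passed under the t distribution, were not counted here or below. These counts of members therefore cannot be set against other genes. Exons of 7 of the 25 overlap another gene on the opposite strand, and no source used here says whether reads were counted by strand; without them 18 calls are left, 5 upward and 13 downward.

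The second comparison asks what 5 µM I-CBP112 does relative to ethanol. All 17 members that passed in the authors' deposited table were lower, out of 50 tested, where 9.90% of all tested genes changed, 4.65% upward and 5.25% downward. These were 8 of 15 ADAMTS genes, 4 of 14 MMPs, 2 of 5 ADAMTSL genes, 2 of 4 TIMPs and 1 of 12 ADAM genes. The median log2 fold change was -0.39, against 0.01 over all tested genes, and 40 of the 50 were below 0, among them all 15 ADAMTS genes. At an unadjusted p below 0.05 in the authors' Wald test, 23 of the 50 members were lower and 1 was higher. Over all 14830 tested genes, 1395 were lower and 1466 higher at that threshold. Of the 17, 4 were at least 2-fold lower, namely Timp4, Adamts4, Adam12 and Adamtsl2.

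The third comparison asks what 5 µM C646 does relative to ethanol. No member passed the authors' DESeq2 test, neither among the 50 nor among the 74 with an adjusted p in the C646 table, where 0.00584% of 34250 genes passed, 0.00292% in each direction (0.00674% of 14830 when adjusted over those). At an unadjusted p below 0.05 in the authors' Wald test, 1 of the 50 members passed, against 0.748% of 14830 genes. Of the 74 members 2 passed, and the share of all 34250 genes at that threshold was not counted. The 1 of the 50 was Adamts17, at a log2 fold change of 0.51 ± 0.25. The other of the 74 was Adam1b, with a mean normalised count of only 2.82. The share of 0.748% is less than a threshold of 0.05 would pass if no gene changed. The test was thus conservative here, and the absence of calls does not show that C646 had no effect. The reason was not tested. The median over the 50 members was -0.00. For 43 of them the 95% interval lay inside a 2-fold change in either direction. The 7 with wider intervals were Timp4, Adamts17, Mmp12, Mmp13, Mmp24, Adam1a and Adam11. The 3 comparisons share the ethanol libraries, so their values are set side by side below and similarity between them is not scored.

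**Figure D1:**
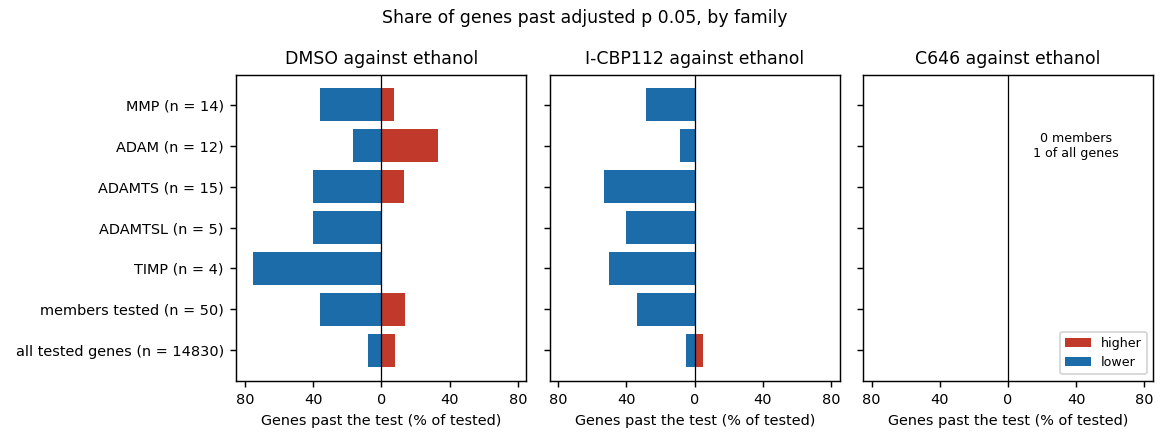
Share of tested genes past adjusted p 0.05 in each family and over all tested genes, 1 panel per comparison with ethanol; bars give the percent higher and the percent lower. In I-CBP112 every called member was lower, in DMSO 3 of 4 TIMPs were lower and 4 of 12 ADAM genes were higher, and in C646 no member was called.

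The TIMP genes encode the inhibitors. Timp4 (chromosome 6, 115241892 to 115252205, minus strand), the member of the family with the narrowest tissue range, had group means of 93.1 normalised counts in ethanol, 13.4 in DMSO, 19.9 in I-CBP112 and 133 in C646. In the authors' deposited tables it was 6.92-fold lower in DMSO, a log2 fold change of -2.79 ± 0.45 (adjusted p = 2.75e-08), and 4.68-fold lower in I-CBP112, at -2.23 ± 0.45 (adjusted p = 3.39e-05), with 0.52 ± 0.40 in C646. Its exons overlap 90 bases of Syn2 on the opposite strand. Timp1 (chromosome X, 20870166 to 20874735, plus strand), a secreted inhibitor that growth factors and cytokines induce, had group means of 3343 in ethanol, 1744 in DMSO, 2031 in I-CBP112 and 3275 in C646. Its log2 fold change in the authors' deposited tables was -0.94 ± 0.12 in DMSO (adjusted p = 2.28e-12), -0.72 ± 0.12 in I-CBP112 (adjusted p = 3.32e-07) and -0.03 ± 0.12 in C646. Thus the DMSO and I-CBP112 means of Timp1 and Timp4 lay below both the ethanol and the C646 mean. Timp3, which binds the matrix and also blocks Adam17, had group means of 35989, 23453, 29456 and 35080 in the same order. In the authors' deposited tables it fell by 0.62 ± 0.16 in DMSO (adjusted p = 0.00104), was at -0.29 ± 0.16 in I-CBP112 (adjusted p = 0.299) and at -0.04 ± 0.16 in C646. Of its exons, 1733 bases overlap Syn3 on the opposite strand. Timp2 passed in no comparison, with group means of 38726, 39777, 41250 and 39117 and log2 fold changes in the authors' deposited tables of 0.04 ± 0.11, 0.09 ± 0.11 and 0.01 ± 0.11. The 95% interval of Timp2 ran from -0.18 to 0.26 in DMSO, from -0.13 to 0.31 in I-CBP112 and from -0.20 to 0.23 in C646. The most abundant inhibitor per kilobase was thus the 1 TIMP that was not called.

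**Figure D2:**
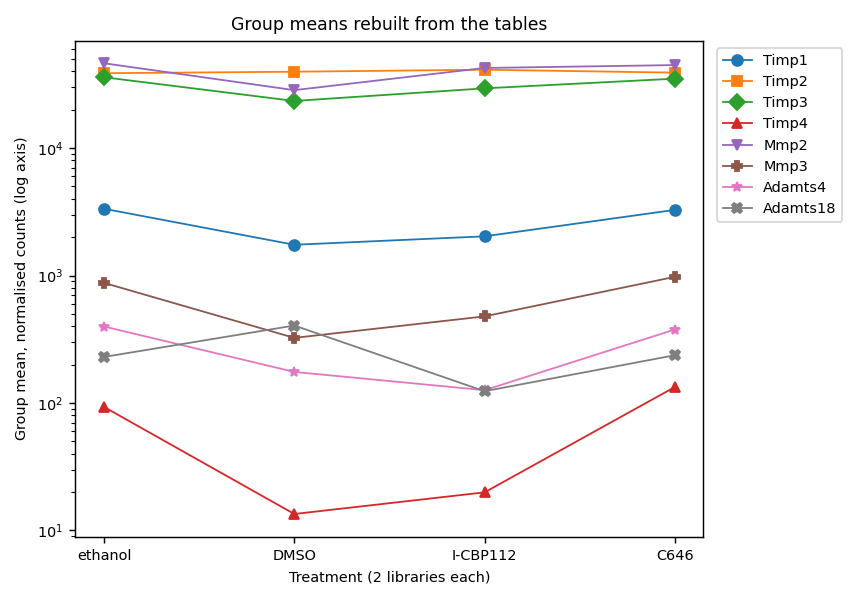
Group mean normalised counts (log axis) of the 4 TIMPs and of Mmp2, Mmp3, Adamts4 and Adamts18, in ethanol, DMSO, I-CBP112 and C646; each point is the rebuilt mean of 2 libraries, and lines only join the points of a gene. Timp4 runs from 93.1 in ethanol to 13.4 in DMSO and 19.9 in I-CBP112, with 133 in C646.

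Among the secreted MMPs, Mmp2 (chromosome 8, 92827291 to 92853420, plus strand) had group means of 46336 in ethanol, 28507 in DMSO, 42561 in I-CBP112 and 44844 in C646, so that DMSO stood apart. Against ethanol in the authors' deposited tables, Mmp2 fell by 0.70 ± 0.11 in DMSO (adjusted p = 1.9e-08), with -0.12 ± 0.11 in I-CBP112 (adjusted p = 0.667) and -0.05 ± 0.11 in C646. Mmp3 (chromosome 9, 7445822 to 7455975, plus strand), stromelysin-1, which cuts proteoglycans and activates other MMP precursors, had group means of 876, 324, 478 and 977 in the same order. The authors' deposited tables give Mmp3 as 2.70-fold lower in DMSO, at -1.43 ± 0.20 (adjusted p = 6.62e-11), and 1.83-fold lower in I-CBP112, at -0.87 ± 0.20 (adjusted p = 0.000298), with 0.16 ± 0.19 in C646. It was the only tested gene of the chromosome 9 cluster to pass against ethanol. Mmp27 of the same cluster, not called, was at -0.83 ± 0.32 in DMSO in the authors' deposited table (adjusted p = 0.0614). Mmp19 (chromosome 10, 128790910 to 128800824, plus strand), a secreted protease of basement membrane proteins, had group means of 1380 in ethanol, 567 in DMSO, 943 in I-CBP112 and 1338 in C646. Its log2 fold changes in the authors' deposited tables were -1.28 ± 0.19 (adjusted p = 3.59e-10) in DMSO, -0.55 ± 0.18 (adjusted p = 0.0325) in I-CBP112 and -0.04 ± 0.18 in C646. Its I-CBP112 call was lost when p-values were adjusted over all genes, and its exons overlap Tmem198b on the opposite strand. Mmp23, an MMP with an unusual amino-terminal membrane anchor, was lower in both, at -0.98 ± 0.16 in DMSO (adjusted p = 9.71e-08) and -0.55 ± 0.16 in I-CBP112 (adjusted p = 0.0117) in the authors' deposited tables, with -0.02 ± 0.16 in C646.

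The membrane-type MMPs did not move together. Mmp14 passed in no comparison, at 0.10 ± 0.11, 0.13 ± 0.11 and -0.03 ± 0.11 in the authors' deposited tables for DMSO, I-CBP112 and C646. Mmp15, a transmembrane relative of it, was the 1 MMP that rose, at 0.71 ± 0.16 in DMSO (adjusted p = 0.000106), with 0.32 ± 0.16 in I-CBP112 (adjusted p = 0.228) and 0.07 ± 0.16 in C646 in the authors' deposited tables. Its group means were 2119 in ethanol, 3478 in DMSO, 2645 in I-CBP112 and 2226 in C646. Mmp16, a further transmembrane form, fell by 0.47 ± 0.16 in I-CBP112 (adjusted p = 0.0279, lost with adjustment over all genes), beside -0.29 ± 0.15 in DMSO and -0.00 ± 0.15 in C646 in the authors' deposited tables. Mmp17, which is held by a lipid anchor, fell by 0.76 ± 0.24 in DMSO (adjusted p = 0.0138) in the authors' deposited table. In I-CBP112 the authors' deposited table has Mmp17 at -0.68 ± 0.24 (adjusted p = 0.0512). Thus Mmp17 missed the threshold narrowly in the second comparison, and a difference between the 2 treatments was not called for it (below).

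Of the ADAM proteases, Adam17, which sheds TNF and ligands of the EGF receptor, rose in DMSO. Its group means were 3110 in ethanol, 4267 in DMSO, 2912 in I-CBP112 and 3126 in C646, and its log2 fold changes in the authors' deposited tables were 0.46 ± 0.13 (adjusted p = 0.00351), -0.09 ± 0.13 and 0.01 ± 0.13. Adam10, the sheddase that starts Notch cleavage, passed in none, at 0.11 ± 0.13, 0.22 ± 0.13 and -0.01 ± 0.13 in the authors' deposited tables, and neither did Adam9, at -0.06 ± 0.11, -0.11 ± 0.11 and 0.04 ± 0.11. Adam15, which carries an integrin-binding motif in its disintegrin domain, rose by 0.58 ± 0.16 in DMSO (adjusted p = 0.00255), with 0.18 ± 0.16 in I-CBP112 and -0.00 ± 0.16 in C646 in the authors' deposited tables. Exons of Adam15 and Adam17 overlap genes on the opposite strand. Adam22 and Adam23, which lack a working catalytic site and bind LGI proteins of synapses, also rose in DMSO. Adam23, in the authors' deposited tables, was at 0.54 ± 0.13 in DMSO (adjusted p = 0.00062), -0.33 ± 0.13 in I-CBP112 (adjusted p = 0.105) and 0.01 ± 0.13 in C646. Adam22 was at 0.72 ± 0.22 (adjusted p = 0.0101), 0.37 ± 0.22 and 0.11 ± 0.22 in the authors' deposited tables.

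Adam12 and Adam33 fell in DMSO. Adam12 (chromosome 7, 133883199 to 134232146, minus strand), known from muscle regeneration and activated fibroblasts, had group means of 1887 in ethanol, 1273 in DMSO, 880 in I-CBP112 and 1955 in C646. Its log2 fold change in the authors' deposited tables was -0.57 ± 0.14 in DMSO (adjusted p = 0.00071), -1.10 ± 0.14 in I-CBP112 (adjusted p = 6.76e-13), 2.14-fold lower, and 0.05 ± 0.14 in C646. Adam33 was at -0.42 ± 0.14 in DMSO (adjusted p = 0.026, lost with adjustment over all genes), -0.28 ± 0.14 in I-CBP112 and 0.01 ± 0.14 in C646 in the authors' deposited tables. Adam12 was the 1 ADAM gene called in I-CBP112. Adam19, related to Adam12, had an SE of 0.39 in the authors' deposited DMSO table, against a median of 0.142 for genes of similar mean count, and its -0.60 there was not called.

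**Figure D3:**
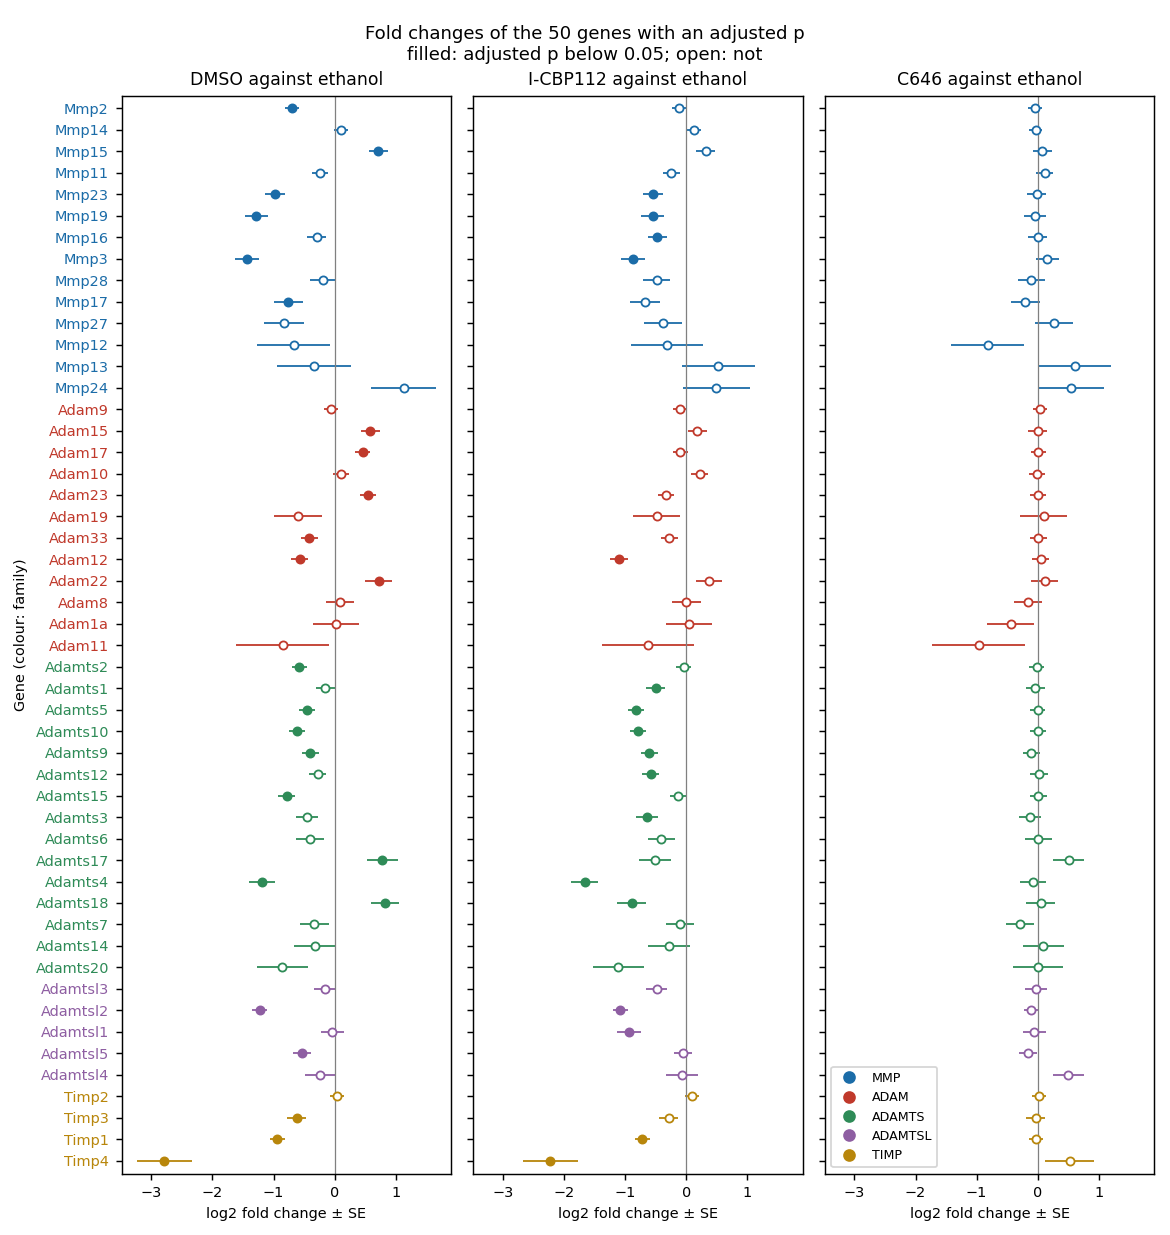
Log2 fold change against ethanol ± SE for the 50 tested members, 1 panel per comparison, coloured and ordered by family; filled points mark members past adjusted p 0.05 in the deposited table. Called members lie on both sides of 0 in DMSO and below 0 in I-CBP112, and none is filled in C646.

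ADAMTS proteoglycanases cut aggrecan and versican. Of 6 tested, 4 fell in DMSO, with a median log2 fold change of -0.62, and 4 fell in I-CBP112, with a median of -0.71, in the authors' deposited tables. Over all tested genes 7.90% fell in DMSO and 5.25% in I-CBP112, with medians of 0.03 and 0.01. Adamts4 (chromosome 1, 171250421 to 171260637, plus strand), aggrecanase-1, had group means of 398 in ethanol, 175 in DMSO, 126 in I-CBP112 and 377 in C646. It was 2.27-fold lower in DMSO, at -1.18 ± 0.22 (adjusted p = 1.41e-06), and 3.16-fold lower in I-CBP112, at -1.66 ± 0.22 (adjusted p = 1.07e-11), with -0.08 ± 0.21 in C646, in the authors' deposited tables. Adamts5, aggrecanase-2, and Adamts1 lie next to each other on chromosome 16, 53.1 kb apart. Adamts5 (85856173 to 85901828, minus strand) had group means of 12747, 9301, 7230 and 12733 in ethanol, DMSO, I-CBP112 and C646. In the authors' deposited tables it was at -0.45 ± 0.13 (adjusted p = 0.00383), -0.82 ± 0.13 (adjusted p = 1.11e-08) and -0.00 ± 0.13. Its neighbour Adamts1 (85793827 to 85803113, minus strand) had group means of 18012, 16215, 12731 and 17516. Adamts1 was called in I-CBP112 only, at -0.50 ± 0.15 (adjusted p = 0.0146), with -0.15 ± 0.15 in DMSO and -0.04 ± 0.15 in C646 in the authors' deposited tables; the difference between I-CBP112 and DMSO did not pass for it. Adamts9, a secreted protease of versican, was at -0.40 ± 0.14 in DMSO (adjusted p = 0.031, lost with adjustment over all genes), -0.61 ± 0.14 in I-CBP112 (adjusted p = 0.000344) and -0.11 ± 0.14 in C646 in the authors' deposited tables. Adamts15, which also cuts versican, had the other pattern, with -0.79 ± 0.14 in DMSO (adjusted p = 5.14e-07), -0.14 ± 0.14 in I-CBP112 and 0.01 ± 0.14 in C646 in the authors' deposited tables.

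Adamts2 and Adamts3 remove the amino-terminal propeptides of fibrillar procollagens. The authors' deposited tables give Adamts2 at -0.58 ± 0.12 in DMSO (adjusted p = 5.05e-05), -0.04 ± 0.12 in I-CBP112 and -0.02 ± 0.12 in C646. Adamts3 was at -0.45 ± 0.18 in DMSO (adjusted p = 0.0621), -0.64 ± 0.18 in I-CBP112 (adjusted p = 0.00529) and -0.13 ± 0.18 in C646 in the authors' deposited tables. Adamts10, which binds fibrillin, fell in both, at -0.62 ± 0.13 (adjusted p = 5.47e-05) in DMSO and -0.79 ± 0.13 (adjusted p = 1.69e-07) in I-CBP112, with 0.01 ± 0.13 in C646, in the authors' deposited tables. Adamts12, a protease of cartilage oligomeric matrix protein, fell by 0.58 ± 0.15 in I-CBP112 (adjusted p = 0.00148), with -0.28 ± 0.15 in DMSO and 0.02 ± 0.15 in C646 in the authors' deposited tables.

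Adamts17 and Adamts18 were the 2 ADAMTS genes that rose in DMSO. Adamts18 (chromosome 8, 113697126 to 113848738, minus strand) had group means of 230 normalised counts in ethanol, 405 in DMSO, 124 in I-CBP112 and 237 in C646. It passed in opposite directions in the authors' deposited tables, at 0.82 ± 0.23 in DMSO (adjusted p = 0.00407) and -0.89 ± 0.24 in I-CBP112 (adjusted p = 0.00395), with 0.05 ± 0.23 in C646. Adamts17, which is linked to fibrillin like Adamts10, had group means of 230, 395, 162 and 327 in the same order. Adamts17, in the authors' deposited tables, was at 0.78 ± 0.25 in DMSO (adjusted p = 0.0171), -0.51 ± 0.26 in I-CBP112 (adjusted p = 0.269) and 0.51 ± 0.25 in C646.

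Among the ADAMTS-like genes, Adamtsl2 (chromosome 2, 27079379 to 27108981, plus strand), a microfibril protein linked to TGF-beta, had group means of 5673 in ethanol, 2424 in DMSO, 2689 in I-CBP112 and 5280 in C646. In the authors' deposited tables it was 2.34-fold lower in DMSO, at -1.23 ± 0.12 (adjusted p = 2.63e-21), and 2.11-fold lower in I-CBP112, at -1.08 ± 0.12 (adjusted p = 3.01e-16), with -0.10 ± 0.12 in C646. Adamtsl1 had group means of 2312, 2255, 1207 and 2225, so that I-CBP112 alone lay low. Its values in the authors' deposited tables were -0.04 ± 0.19 in DMSO, -0.94 ± 0.19 in I-CBP112 (adjusted p = 5.76e-05) and -0.06 ± 0.19 in C646. Adamtsl5 fell by 0.54 ± 0.15 in DMSO (adjusted p = 0.00306), with -0.06 ± 0.15 in I-CBP112 and -0.16 ± 0.15 in C646 in the authors' deposited tables. Adamtsl3 was called in none, at -0.16 ± 0.17, -0.48 ± 0.17 (adjusted p = 0.056) and -0.03 ± 0.17 in the authors' deposited tables.

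The treatments were then compared with each other, so that the ethanol libraries cancel. Differences and their errors were rebuilt from the deposited fold changes and SEs, and p-values were adjusted over 14830 genes. Between I-CBP112 and DMSO 11 of 50 members differed, 5 higher and 6 lower in I-CBP112, where 6.97% of all genes differed, 4.31% higher and 2.66% lower. The largest difference was that of Adamts18, lower in I-CBP112 by 1.71 ± 0.24 on the log2 scale (a difference of -1.71, adjusted p = 1.82e-10). Adamts17 differed by -1.29 ± 0.26 (adjusted p = 4.19e-05), Adam23 by -0.87 ± 0.13 (adjusted p = 9.5e-09) and Adamtsl1 by -0.90 ± 0.19 (adjusted p = 0.000217). The other 2 lower ones were the sheddase Adam17, at -0.55 ± 0.13 (adjusted p = 0.00059), and Adam12, at -0.53 ± 0.14 (adjusted p = 0.00478). Higher in I-CBP112 than in DMSO were Mmp2 by 0.58 ± 0.11 (adjusted p = 2.07e-05), Mmp19 by 0.73 ± 0.19 (adjusted p = 0.00288) and Adamts15 by 0.65 ± 0.14 (adjusted p = 0.000167). The procollagen protease Adamts2 was higher by 0.54 ± 0.12 (adjusted p = 0.000501) and Adamtsl5 by 0.48 ± 0.15 (adjusted p = 0.0217). No TIMP passed, with differences of 0.22 ± 0.12 for Timp1, 0.05 ± 0.11 for Timp2, 0.33 ± 0.16 for Timp3 and 0.56 ± 0.51 for Timp4; the interval of Timp4, from -0.44 to 1.57, leaves room for a 2-fold difference. With an upper bound for the SE, 4 of the 11 passed, namely Mmp2, Adam23, Adamts17 and Adamts18. The share of all genes that passed with this bound was not counted, here or in the comparisons below.

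**Figure D4:**
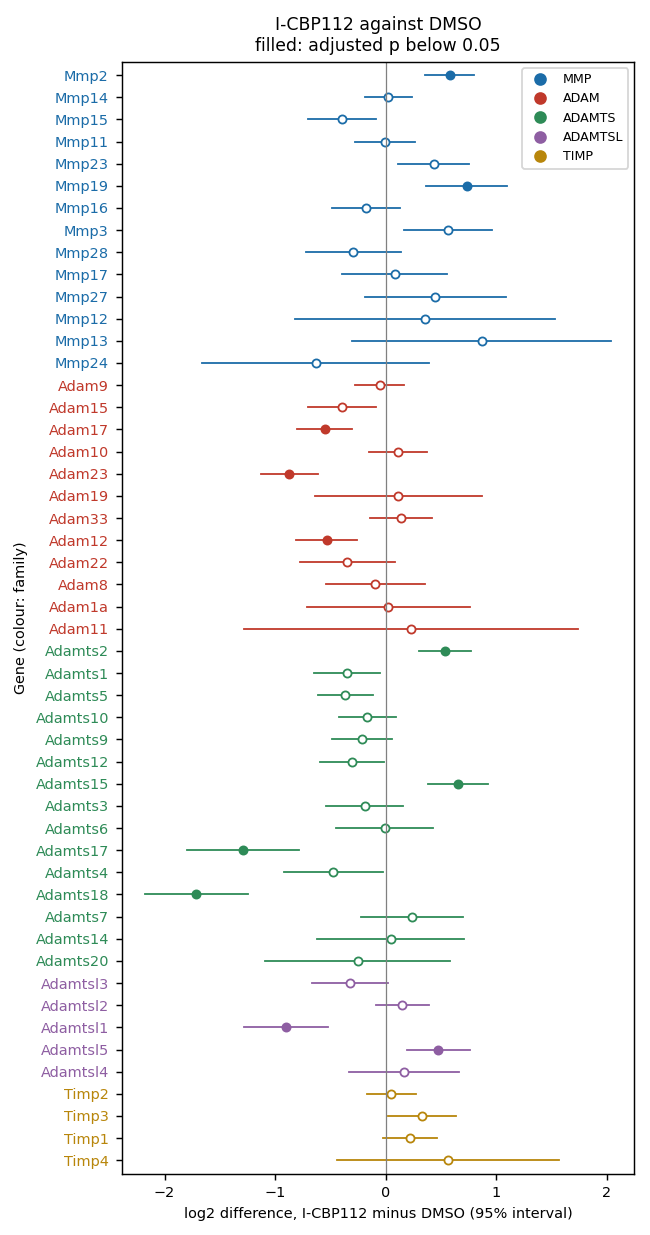
Difference in log2 level, I-CBP112 minus DMSO, with 95% intervals, for the 50 tested members; filled points passed adjusted p 0.05 and colour gives the family. Adamts18 at -1.71 and Adamts17 at -1.29 lie farthest below 0, Mmp19 at 0.73 farthest above among called members, and the intervals of Timp1, Timp2 and Timp4 include 0.

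I-CBP112 and C646, given at the same 5 µM dose and time and both directed at CBP and p300, differed for 17 of 50 members, all lower in I-CBP112, where 9.80% of all genes differed, 4.69% higher and 5.11% lower. Timp4 was lower by a difference of -2.75 ± 0.44 (adjusted p = 3.05e-08) and Adamts4 by -1.58 ± 0.22 (adjusted p = 1.25e-10). Adam12 differed by -1.15 ± 0.14 (adjusted p = 4.67e-14), Mmp3 by -1.03 ± 0.20 (adjusted p = 9.11e-06), Adamtsl2 by -0.97 ± 0.12 (adjusted p = 2.62e-13) and Timp1 by -0.69 ± 0.12 (adjusted p = 1.29e-06). Inhibitors, a stromelysin, aggrecanases and microfibril proteins were therefore all among the members lower in I-CBP112. The remaining differences were -0.82 for Adamts5, -0.79 for Adamts10, -0.88 for Adamtsl1, -1.01 for Adamts17, -0.94 for Adamts18, -0.60 for Adamts12, -0.53 for Mmp23, -0.51 for Adamts3, -0.50 for Adamts9, -0.47 for Mmp16 and -0.46 for Adamts1. With the upper bound for the SE, 9 of the 17 passed, and Adamts1, Adamts3, Adamts9, Adamts12, Adamts17, Adamts18, Mmp16 and Mmp23 did not.

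C646 and DMSO differed for 23 of 50 members, 17 higher and 6 lower in C646, where 15.8% of all genes differed, 7.98% higher and 7.86% lower. Timp4 was higher in C646 by 3.31 ± 0.47 (adjusted p = 8.71e-11), Mmp3 by 1.59 ± 0.20 (adjusted p = 1.94e-13), Mmp19 by 1.24 ± 0.19 (adjusted p = 1.68e-09) and Adamtsl2 by 1.12 ± 0.12 (adjusted p = 7.32e-18). Mmp27 and Adamtsl4, which were called in no comparison with ethanol, differed here, by 1.09 ± 0.32 (adjusted p = 0.00706) and 0.73 ± 0.25 (adjusted p = 0.031). The other higher ones were Adamts4 by 1.11, Mmp23 by 0.96, Timp1 by 0.91, Adamts15 by 0.79, Mmp2 by 0.65, Adamts10 by 0.63, Adam12 by 0.62, Timp3 by 0.58, Adamts2 by 0.56, Adamts5 by 0.45 and Adam33 by 0.42. Lower in C646 were Adamts18 at -0.77, Mmp15 at -0.64, Adam22 at -0.60, Adam15 at -0.58, Adam23 at -0.54 and Adam17 at -0.45. With the upper bound 12 passed, all higher in C646. Mmp27, Adamtsl4, Timp3, Adamts5, Adam33 and the 6 lower ones did not pass with it. Adamtsl4 had an SE of 0.255 in the authors' deposited DMSO table, against a median of 0.169 for genes of similar mean count. The doses of DMSO and C646 are in different units (percent and µM), so this compares the 2 groups as treated.

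Other genes of matrix proteolysis were given by a list. Of 35 tested, 2 rose and 7 fell in DMSO and 4 rose and 7 fell in I-CBP112 in the authors' deposited tables, and none was called in C646. Their medians were -0.13 in DMSO and -0.19 in I-CBP112. For all tested genes, 8.07% rose and 7.90% fell in DMSO (median 0.03), and 4.65% rose and 5.25% fell in I-CBP112 (median 0.01). Serpine2, an inhibitor of plasminogen activators and thrombin, fell in the authors' deposited table for DMSO by 0.91 ± 0.13 (adjusted p = 1.61e-10). The plasminogen activator Plau, in the authors' deposited table, fell by 0.60 ± 0.18 in I-CBP112 (adjusted p = 0.0103). Pcolce2, an enhancer of procollagen C-proteinase, was at -1.47 ± 0.15 in DMSO and -1.10 ± 0.15 in I-CBP112 (adjusted p = 2.1e-20 and 1.84e-11) in the authors' deposited tables. Reck, a membrane-anchored inhibitor of MMPs, was at -0.33 ± 0.13 in DMSO (adjusted p = 0.071) and -0.42 ± 0.13 in I-CBP112 (adjusted p = 0.0183) in the authors' deposited tables. Upward, the serine protease Htra1 was at 0.93 ± 0.12 in DMSO and 0.60 ± 0.12 in I-CBP112 (adjusted p = 1.61e-13 and 1.37e-05), and Tspan5, a tetraspanin partner of Adam10, at 0.69 ± 0.12 and 0.60 ± 0.12 (adjusted p = 8.42e-07 and 4.13e-05), in the authors' deposited tables. Rhbdf2, the pseudoprotease that carries Adam17 to the cell surface, fell by 1.04 ± 0.25 in DMSO (adjusted p = 0.000394) in the authors' deposited table, where Adam17 itself rose. The lysosomal proteases Ctsb and Ctsl rose in I-CBP112, by 0.39 ± 0.11 and 0.41 ± 0.13 (adjusted p = 0.00412 and 0.023), in the authors' deposited table.

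Markers of cell types moved in the same comparisons, and their part in the results above was not tested. Over all tested genes, 8.07% rose and 7.90% fell in DMSO, and 4.65% rose and 5.25% fell in I-CBP112. Of the 12 fibroblast markers, 9 fell in DMSO and 7 in I-CBP112 in the authors' deposited tables. Of 11 tested cardiomyocyte markers, 8 rose in DMSO and 11 in I-CBP112 in the authors' deposited tables, and their summed level was 108610 normalised counts in ethanol, 314424 in DMSO, 307285 in I-CBP112 and 110989 in C646. All 6 smooth muscle markers fell in DMSO and 0 passed in I-CBP112 in the authors' deposited tables. Of 9 tested macrophage and leukocyte markers 0 passed in DMSO and Adgre1 and Csf1r fell in I-CBP112 in the authors' deposited tables; the summed level of that list was 3890 in ethanol, 3860 in DMSO, 3203 in I-CBP112 and 3653 in C646. Of 2 further types, 2 of 8 endothelial and 3 of 10 cartilage and bone markers were tested. The untested endothelial markers ran from 0 (Cldn5) to a mean normalised count of 14.2 (Pecam1), with Cdh5 at 6.49 and Emcn at 2.12. The untested cartilage and bone markers ran from 0.249 (Ibsp) to 14.1 (Col2a1), with Acan at 4.37 and Matn1 at 0.618. The tested ones were higher, at 450 (Kdr), 338 (Tek), 2698 (Comp), 308 (Sox9) and 139 (Runx2). Of the tested endothelial markers Kdr and Tek, Tek fell in DMSO and in I-CBP112, and of the cartilage and bone markers Sox9, Comp and Runx2, Sox9 and Comp fell in both, in the authors' deposited tables.

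The 24 members with counts but no adjusted p in the DMSO and I-CBP112 tables had mean normalised counts from 0.219 to 17.6, below the lowest tested gene of the series at 26.1. They include the second gelatinase Mmp9 at 1.89, the neutrophil collagenase Mmp8 at 4.56 and the stromelysin Mmp10 at 0.607, and further Mmp1a, Mmp1b, Mmp20, Mmp21, Mmp25, Adamts8, Adamts13, Adamts16 and Adamts19. The rest were Adam1b, Adam2, Adam3, Adam4, Adam5, Adam18, Adam20, Adam21, Adam28, Adam30, Adam32 and Adam39. Of the 21 ADAM genes known mainly from testis, 1, Adam1a, was tested. The 10 members listed at 0 were Mmp7, Adam6a, Adam6b, Adam7, Adam24, Adam25, Adam26a, Adam26b, Adam29 and Adam34. Near-identical copies such as Mmp1a and Mmp1b can share reads, and their low values are uncertain for that reason as well. The members tested but called in none of the 6 comparisons, beside Timp2, Mmp14, Adam9, Adam10, Adam19 and Adamtsl3, were Mmp11, Mmp12, Mmp13, Mmp24, Mmp28, Adam1a, Adam8, Adam11, Adamts6, Adamts7, Adamts14 and Adamts20.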

How the data were processed

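RNA was sequenced from 8 libraries, 2 per treatment, grouped by the treatment in the labels. Per the submitters' processing notes, the authors used kallisto 0.43.1 and DESeq2 (version not given in the sources used here) with GRCm38.p5. They deposited 3 comparison tables of 50600 genes with no reference named. The deposited signal is the authors' mean normalised count over all libraries. The log2 fold change, its SE and the Wald score are the authors' deposited values, as are the p-value and adjusted p, given for 14830 genes in 2 tables and 34250 in the C646 table. Depth per library is not given in these tables; precision rests on the SEs (median 0.185, log2).

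The group without a table was read as the reference. Among 2312 genes with a mean count under 0.16, 598 were lower in all 3 tables, as genes seen in another group would be. Group means were rebuilt from the mean and the 3 fold changes (pandas 2.3.3, scipy 1.17.1). Differences between treatments used SEs rebuilt under 1 dispersion per gene and groups of equal size, and a two-sided normal p adjusted by Benjamini-Hochberg. The formula gave 98.9% to 99.0% of the deposited SEs to within 1%. Its dispersions came from these same SEs, so the match is partly built in. It does not check the SEs between treatments. The formula was also run on simulated data, whose SEs were built with the same formula, so that run checks only the code. The authors' p-values were not recomputed, as the files hold no counts of libraries. Positions are from GENCODE M21, which holds all 84 members; promoters are from RefSeq GRCm38.p6. No protein sequences were used here.

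Members and lists were chosen with earlier results of these data known. The lists were markers of 6 cell types, other matrix proteolysis, cleavage targets, and AP-1 and ETS factors. Named members were the TIMPs, every member called in any comparison, and the 5 most abundant uncalled ones; genes of the lists were chosen as examples after their values were seen. Alternatives were other thresholds, gene sets, scalings, a t distribution, a least fold and an upper SE bound.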

Additional observations from a re-analysis of the deposited data

How the results depend on the processing

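No result reversed under the alternatives run. Read against a t distribution (4 degrees of freedom), 0 members passed in each of the 6 comparisons, against 25, 17, 0, 11, 17 and 23 with the normal (DMSO, I-CBP112 and C646 against ethanol, I-CBP112 against DMSO, I-CBP112 against C646, C646 against DMSO). A least change of 2-fold left 5 members in DMSO and 4 in I-CBP112. The upper bound of the SE left 4 of 11, 9 of 17 and 12 of 23 in the comparisons between treatments. The wider SE is that setting's own construction. Shares of all tested genes under the t distribution, the 2-fold minimum and the upper bound were not counted. Every other setting stayed within 1.5 times the count: 18 to 27 in DMSO, 13 to 20 in I-CBP112, 10 to 14 for I-CBP112 against DMSO, 13 to 22 for I-CBP112 against C646 and 20 to 25 for C646 against DMSO. C646 against ethanol gave 0 under each setting run. The setting without members with overlapping exons was chosen after seeing the data. Centring on the median gene or scaling to totals flipped only members near 0 that were not called. The library numbers 2 and 3 recur in every treatment, and neither a pairing by them nor its use in the authors' fit is stated. No paired analysis was possible because the tables hold no values of single libraries; for the same reason the edgeR and DESeq2 refits and the fits without replicate 2 or 3 were not run. The SEs rest on 2 libraries a group, and members with few counts have the widest intervals.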

Other observations

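Lists of genes whose products these proteases cut were counted as well, beside all tested genes, of which 8.07% rose and 7.90% fell in DMSO (median 0.03) and 4.65% rose and 5.25% fell in I-CBP112 (median 0.01). Of 14 tested substrates of Adam10 and Adam17, 1 rose and 4 fell in DMSO and 1 rose and 3 fell in I-CBP112 in the authors' deposited tables, with 0 called in C646; their medians were -0.32 in DMSO and -0.36 in I-CBP112. Hbegf, a ligand of the EGF receptor, was at 1.69 ± 0.14 in DMSO (adjusted p = 4.65e-32) and 0.51 ± 0.14 in I-CBP112 (adjusted p = 0.00448) in the authors' deposited tables. Ereg, another such ligand, was at -1.16 ± 0.24 and -1.30 ± 0.24 (adjusted p = 3.69e-05 and 4.12e-06) in the authors' deposited tables. The receptor Notch1 fell by 1.18 ± 0.26 in DMSO (adjusted p = 9.33e-05) and was at -0.32 ± 0.26 in I-CBP112 (adjusted p = 0.593) in the authors' deposited tables. Of 11 tested matrix substrates, 6 fell in DMSO and 5 in I-CBP112 in the authors' deposited tables, with medians of -0.66 and -0.48. Among them versican (Vcan), a target of the ADAMTS proteoglycanases, fell by 0.81 ± 0.19 in DMSO (adjusted p = 0.000255) in the authors' deposited table.

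Of 13 AP-1, ETS and related transcription factors, 2 rose and 2 fell in DMSO and 1 fell in I-CBP112 in the authors' deposited tables, with 0 called in C646; their medians were -0.10 and 0.07, and over all tested genes 16.0% were called in DMSO and 9.90% in I-CBP112. Jun and Jund rose in the authors' deposited table for DMSO, by 0.54 ± 0.19 and 0.35 ± 0.12 (adjusted p = 0.0302 and 0.0214), while Fosl2 fell there by 0.55 ± 0.17 (adjusted p = 0.0115). Runx1 was lower in both, at -1.25 ± 0.21 in DMSO and -1.34 ± 0.21 in I-CBP112 (adjusted p = 7.5e-08 and 1.13e-08) in the authors' deposited tables.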
